A study of Mus musculus with 16 samples.

Results

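The cytosolic ribosomal protein genes encode the proteins of the large (Rpl) and small (Rps) subunits of the ribosome that translates nuclear messages. They were taken by symbol from the RefSeq annotation of mouse build mm10, without the Rps6k kinases and the pseudogenes, which gave 89 of the 21883 genes that code for proteins on the autosomes, X and Y. Of the 89, 54 carried a large subunit symbol and 35 a small subunit symbol. The canonical ribosomal proteins made up 77 of them and paralogs 9, and 3 were other genes caught by the symbol. These were Rpl32l, Rps23rg1, a retrogene of Rps23, and Rps19bp1, which encodes a protein that binds Rps19.

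E2f4, a transcription factor of the E2F family, and the histone marks H3K4me2 and H3K27ac were mapped by ChIP-seq in regenerating mouse liver. KO mice were Arid1a Fl/Fl; Alb-cre, and WT mice were Arid1a Fl/Fl without Cre, so the WT animals also carried the floxed alleles. Arid1a encodes a subunit of SWI/SNF chromatin remodelling complexes, and the albumin promoter drives Cre in hepatocytes, so that other liver cells are not expected to lose the gene. Both groups were a C57/B6 and 129 mix at postnatal day 90, and livers were taken 40 h after partial hepatectomy, frozen and fixed in 1% formaldehyde for 20 min before hepatocytes were isolated. There were 2 E2f4 libraries per genotype and 1 library per genotype for each mark. Whether replicates came from separate animals is not stated in the labels, and their spread may therefore be technical only.

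A cell that is about to divide must make many ribosomes, and in liver regrowth the synthesis of ribosomes starts before DNA is copied. Ribosomal protein genes are short, highly transcribed and active in nearly every cell type. Many of their promoters lack a TATA box, hold binding letters of ETS factors, Sp1 or YY1, and start transcription at a C followed by a run of pyrimidines, the 5′ terminal oligopyrimidine (TOP) start through which mTOR signalling controls translation of the message. E2f4 is known mainly at genes of DNA replication and mitosis.

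The peak lists held 287 and 683 E2f4 peaks in the KO libraries and 1791 and 1058 in the WT libraries. They give no read counts, so the depth behind them is unknown, and a shallower or less enriched library yields a shorter list. H3K4me2 regions covered 112 Mb in KO and 104 Mb in WT, and H3K27ac regions covered 104 Mb in KO and 113 Mb in WT. The labelled cell type was checked by the length that called regions covered within 5000 bp of marker genes. All 8 hepatocyte markers carried both marks in both genotypes, with summed H3K4me2 of 65947 bp in KO and 66163 bp in WT. Markers of other cell types also carried marks, and for several types the covered length differed between the single KO and WT libraries of a mark. The 7 lymphocyte markers summed to 2642 bp of H3K4me2 in KO, with 4 at 0 (Cd2, Cd3e and Cd79b among them), and to 21293 bp in WT, with 1 at 0. The 5 endothelial markers summed to 27744 bp of H3K4me2 in KO and 18483 bp in WT, the 5 macrophage markers to 16039 and 14692 bp, the 4 stellate markers to 14831 and 6495 bp, and the 4 cholangiocyte markers to 2347 and 2669 bp with Krt19 and Krt7 at 0 in both. In H3K27ac the KO and WT sums were 70098 and 67259 bp for hepatocytes, 4914 and 3414 bp for lymphocytes, 26132 and 32209 bp for endothelium, 19502 and 22434 bp for macrophages and 5775 and 13900 bp for stellate cells, and 0 in both for cholangiocytes.

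The listed start was the 5′-most RefSeq start, available for 69 of the 89 genes. The other 20 genes, Rpl3 and Rps20 among them, were placed by the gene end that carried more H3K4me2. The genes lay on 19 chromosomes, with 14 on chromosome 7. Starts of another protein-coding gene lay within 1000 bp for 15 of them, as in Rps28 and Ndufa7, whose starts were 10 bp apart, and within 5000 bp for 35, so signal at these starts cannot be given to a single gene.

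Promoters of 7 genes are shown from 250 bp before to 20 bp after the start (RefSeq, GRCm38.p6, 5′ to 3′ on the gene's strand). Rpl4 had an E2f4 summit in both WT libraries, Rps3a1 and Rps19 had one in a single library, and Rpl10l and Rpl39l carried no mark. Rps6 and Rplp0 were chosen by name and not by their letters. Capitals mark every match lying whole in these bases, on either strand, to the letters searched (named after the sequences), and a pyrimidine run of 5 or more at a start that begins with C.
Rpl4 (chr9:64173137-64173406, plus strand): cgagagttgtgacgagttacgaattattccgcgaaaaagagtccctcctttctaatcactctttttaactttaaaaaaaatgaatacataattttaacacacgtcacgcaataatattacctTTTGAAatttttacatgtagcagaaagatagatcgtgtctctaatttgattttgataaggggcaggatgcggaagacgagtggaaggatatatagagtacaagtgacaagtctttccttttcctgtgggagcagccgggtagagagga
Rps3a1 (chr3:86142649-86142918, minus strand): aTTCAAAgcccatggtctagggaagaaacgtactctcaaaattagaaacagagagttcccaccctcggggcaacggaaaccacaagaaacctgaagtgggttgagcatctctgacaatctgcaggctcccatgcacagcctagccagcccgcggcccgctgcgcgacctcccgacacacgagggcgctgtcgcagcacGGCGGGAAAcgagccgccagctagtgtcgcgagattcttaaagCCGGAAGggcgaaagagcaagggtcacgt
Rps19 (chr7:24884342-24884611, plus strand): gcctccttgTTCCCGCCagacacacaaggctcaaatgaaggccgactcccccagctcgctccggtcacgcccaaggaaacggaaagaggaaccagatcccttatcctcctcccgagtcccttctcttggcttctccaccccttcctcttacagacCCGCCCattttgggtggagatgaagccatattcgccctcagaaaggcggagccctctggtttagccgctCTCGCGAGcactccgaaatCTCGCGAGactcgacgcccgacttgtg
Rps6 (chr4:86857348-86857617, minus strand): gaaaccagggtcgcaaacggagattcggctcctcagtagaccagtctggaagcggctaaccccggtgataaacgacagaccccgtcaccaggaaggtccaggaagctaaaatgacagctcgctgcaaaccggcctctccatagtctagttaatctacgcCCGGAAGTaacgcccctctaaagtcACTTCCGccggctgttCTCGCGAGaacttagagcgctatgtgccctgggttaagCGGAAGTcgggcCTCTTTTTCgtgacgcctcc
Rplp0 (chr5:115559217-115559486, plus strand): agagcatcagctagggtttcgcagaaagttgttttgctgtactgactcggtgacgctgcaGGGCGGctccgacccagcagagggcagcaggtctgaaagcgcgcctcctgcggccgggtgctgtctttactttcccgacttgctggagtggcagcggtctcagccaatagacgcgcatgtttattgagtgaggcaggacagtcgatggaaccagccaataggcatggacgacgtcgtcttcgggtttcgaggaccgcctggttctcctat
Rpl10l (chr12:66284382-66284651, minus strand): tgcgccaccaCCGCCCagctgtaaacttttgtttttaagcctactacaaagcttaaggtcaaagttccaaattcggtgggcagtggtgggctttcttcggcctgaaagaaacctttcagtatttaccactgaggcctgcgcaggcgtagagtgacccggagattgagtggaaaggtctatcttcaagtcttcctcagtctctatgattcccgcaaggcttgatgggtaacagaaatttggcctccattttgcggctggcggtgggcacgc
Rpl39l (chr16:10169978-10170247, plus strand): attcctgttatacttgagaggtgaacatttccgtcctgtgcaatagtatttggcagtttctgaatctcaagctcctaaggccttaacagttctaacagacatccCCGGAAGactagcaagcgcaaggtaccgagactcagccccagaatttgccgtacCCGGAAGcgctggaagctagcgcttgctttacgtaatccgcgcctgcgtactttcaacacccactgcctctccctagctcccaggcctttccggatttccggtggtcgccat

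The letters were searched on both strands of 300 bp per promoter, from 250 bp upstream to 50 bp downstream, in the 69 ribosomal protein genes and in all 17491 listed promoters. E2F letters (TTTCCCGC, TTTGGCGC or TTCCCGCC, of which the first and last overlap) were in 4 of 69 ribosomal protein promoters, or 5.8%, against 4.29% of all promoters and 23.2% of the 685 promoters near an E2f4 summit of each WT library. The 4 were Rps10, Rps16, Rps19 and Rps3a1. Among promoters with H3K4me2 within 1000 bp of the start the E2F share was 5.82%. The CHR letters TTTGAA, which mark many mitotic genes, were in 10.1% of ribosomal protein promoters, against 16.5% of all and 11.9% of those with H3K4me2.

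ETS letters (ACTTCCG or CCGGAAG, which can overlap) had the widest gap in share. They were in 34 of 69 ribosomal protein promoters, or 49.3%, against 14.5% of all promoters and 20.0% of the 11833 promoters with H3K4me2 within 1000 bp of the start. Rps6, whose product is the substrate of the S6 kinases, held them at 91, 90, 66 and 12 bp before the start. The palindrome CTCGCGAG was in 6 of 69, or 8.7%, against 1.31% of all and 1.81% of those with H3K4me2, and Rps19 held it at 26 bp before the start and again 7 bp before it. YY1 letters (AAGATGGCG or ATGGCGG, which overlap) were in 11 of 69, or 15.9%, against 6.06% of all and 8.36% of those with H3K4me2.

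The remaining letters stood nearer to other promoters. The Sp1 letters GGGCGG were in 58.0% of ribosomal protein promoters, between the 46.3% of all promoters and the 62.9% of promoters with H3K4me2. The E-box CACGTG was in 7.25%, against 7.91% of all and 9.9% of those with H3K4me2, and the NRF1 letters GCGCATGCG in 2.9%, against 2.41% and 3.37%. TATAAA was in 11.6%, below the 13.3% of all promoters and above the 7.72% of those with H3K4me2. A match describes letters only and is no evidence of binding.

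**Figure D1:**
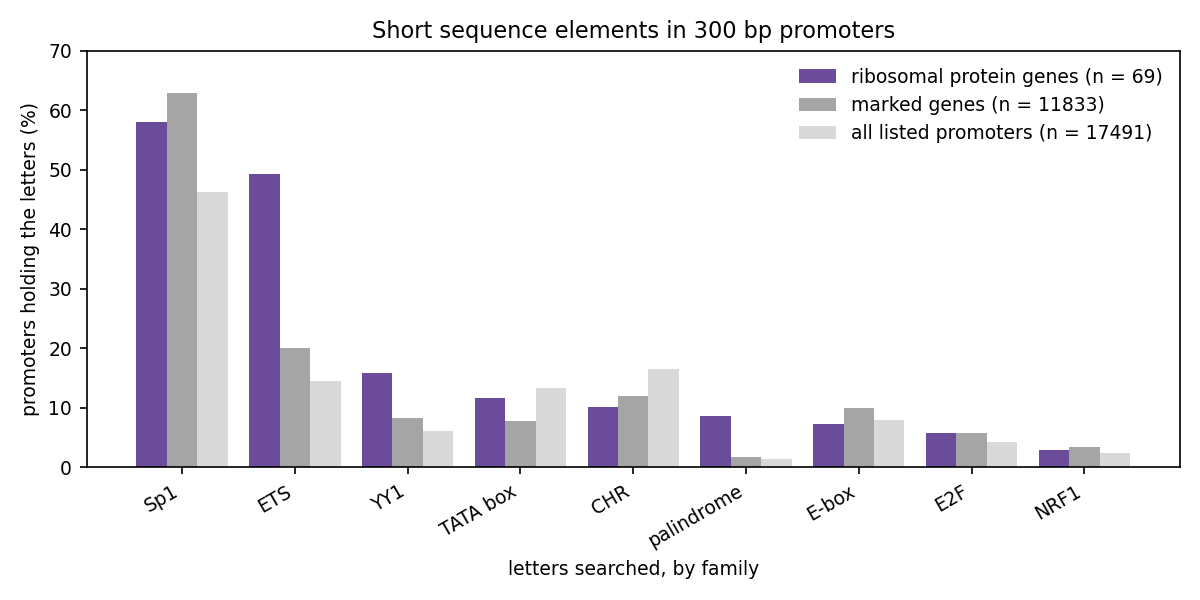
Share of promoters (y axis, %) that hold the letters of each family (x axis) in 300 bp, for ribosomal protein genes, genes with H3K4me2 within 1000 bp of the start, and all listed promoters. ETS letters stand at 49.3% of ribosomal protein promoters against 14.5% of all, and E2F letters at 5.8% against 4.29%.

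The first transcribed base was C in 24 of 69 ribosomal protein genes, or 34.8%, against 13.7% of all promoters. A C start followed by a run that reached at least 5 pyrimidines was found in 14 of 69, or 20.3%, against 2.17% of all. Rpl15 had 13 pyrimidines in a row, Rpl35 had 11, Rps10 had 10, Rps6 and Rps18 had 9 each, and Rpl28, Rpl38 and Rps15a had 8 each. A single listed start per gene was read, so a run that begins a base away from it is missed, as in Rpl27a, whose run of 16 began with T.

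E2f4 was rare at ribosomal protein genes. The shares were near those of all genes in the KO libraries, below them in WT replicate 1 and above them in WT replicate 2. A summit lay within 1000 bp of the start of 1 and 3 of the 89 genes in the KO libraries, against 4 and 6 in the WT libraries. These are 1.12% and 3.37% in KO, and 4.49% and 6.74% in WT, beside 1.13% and 3.19% of all protein-coding genes in the KO libraries and 6.53% and 4.64% in the WT libraries. A summit in at least 1 KO library was found at 3 genes, Rpl3, Rps20 and Rpl4, or 3.37% against 3.22% of all genes. The same 3 carried a summit in each WT library, 3.37% against 3.78% of all genes. Over all genes with summits in the WT pair, 71.7% also had one in a KO library. Only Rpl3 had a summit in both KO libraries, 1.12% against 1.1%, so without KO replicate 2 the KO count is 1. Without WT replicate 1 the WT count is 6. Any of the 4 libraries gave 7 genes, 7.87% against 7.55%.

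Most of the shares were lower than among genes that, like nearly all ribosomal protein genes, had H3K4me2 within 1000 bp of the start. Over the 84 such ribosomal protein genes and the 14913 such genes, a summit was found at 1.19% against 1.66% in KO replicate 1, 3.57% against 4.69% in KO replicate 2, 4.76% against 9.57% in WT replicate 1, and 7.14% against 6.81% in WT replicate 2. The shares were 3.57% against 4.73% for at least 1 KO library, 1.19% against 1.62% for both KO libraries, 3.57% against 5.55% for both WT libraries and 8.33% against 11.1% for any library. A list of 15 replication and mitosis genes, such as Mcm2 to Mcm7 and Cdk1, had 13 with a summit in a KO library. In both WT libraries 14 of them had one. The list was chosen with earlier results of these data known, so its counts are not an independent control.

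The KO libraries averaged 2.0 ± 1.41 ribosomal protein genes with a summit and the WT libraries 5.0 ± 1.41 (SD, n = 2 each), a difference of -3.0 with p = 0.33 by an exact two-sided permutation test, the smallest p that 2 against 2 libraries allow. Libraries of the 2 genotypes did not overlap, and neither did they over all genes, where the KO mean was 38.7% of the WT mean, beside 40.0% for ribosomal protein genes. The order of the genotypes depended on list length. With every list held to its 287 strongest peaks, 1 and 3 ribosomal protein genes had a summit in the KO libraries and 1 and 1 in the WT libraries, a difference of 1.0. In material pooled from many cells, fewer cells of a type and less signal per cell cannot be told apart. Hepatocytes had been isolated, per the labels, but marker genes of other cell types carried marks in these lists.

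Rpl3, a large subunit protein near the site of peptide bond formation, was the only ribosomal protein gene with a summit in all 4 libraries. The summits lay 76 to 78 bp outside the marked gene end on chromosome 15 and within 2 bp of each other, and the 4 peaks overlapped. The authors' fold enrichment at the peak was 6.85 and 10.1 in the KO libraries, at ranks 198 of 287 and 277 of 683 by -log10 q, and 11.8 and 14.8 in the WT libraries, at ranks 423 of 1791 and 311 of 1058. Fold and rank belong to their own list, and neither shows a change between libraries.

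Rps20, a small subunit protein, had summits on chromosome 4 in KO replicate 2 and both WT libraries, 67 to 77 bp outside the marked end. The peak had a fold of 13.0 in KO replicate 2, and of 17.9 and 9.89 in the WT libraries. The summits also lay 73 to 83 bp inside the end of the long noncoding RNA gene Gm32823. No peak of KO replicate 1, the shortest list, overlapped them.

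Rpl4, whose product lines the tunnel through which the new peptide leaves, had summits on chromosome 9 in the same 3 libraries. They lay 467 to 484 bp upstream of the Rpl4 start, beyond the bases shown here, and 184 to 201 bp inside Zwilch, a kinetochore gene whose end with more H3K4me2 was 283 bp from the Rpl4 start. The fold was 10.1 in KO replicate 2, and 22.6 and 24.7 in the WT libraries at ranks 135 of 1791 and 163 of 1058. This was the strongest E2f4 peak at a ribosomal protein gene in either WT library, and its summit was closer to the end of Zwilch than to the start of Rpl4.

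Single summits, seen in 1 WT library and no other, were found at 4 genes. How many other genes had such a single summit was not counted. Over all genes, 6.53% had a summit in WT replicate 1 and 4.64% in WT replicate 2, and 3.78% in both. Rps19, the gene most often mutated in Diamond-Blackfan anaemia, had one 12 bp upstream of its start in WT replicate 2 (rank 817 of 1058). Rps16, a small subunit protein that touches the transfer RNA, had one 36 bp upstream in WT replicate 1 (rank 1554 of 1791). Rps3a1, a small subunit protein, had one 54 bp upstream in WT replicate 2 (rank 575 of 1058), where no H3K27ac region was called in either genotype. Rpl35a, a large subunit protein, had one 291 bp upstream in WT replicate 2, at rank 1054 of 1058 and inside the neighbouring gene Iqcg.

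Of the 4 ribosomal protein genes with E2F letters, 3 had such a single WT summit and Rps10 had none. The share of all promoters with E2F letters that had a summit was not counted, so 3 of 4 cannot be set against other genes. In Rps3a1 the letters began 52 bp before the start, beside the summit at 54 bp. In Rps16 they began 67 bp before the start with the summit at 36 bp, and in Rps19 they began 241 bp before it with the summit at 12 bp. Rpl4, with a summit in both WT libraries, held no E2F letters in the printed window.

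**Figure D2:**
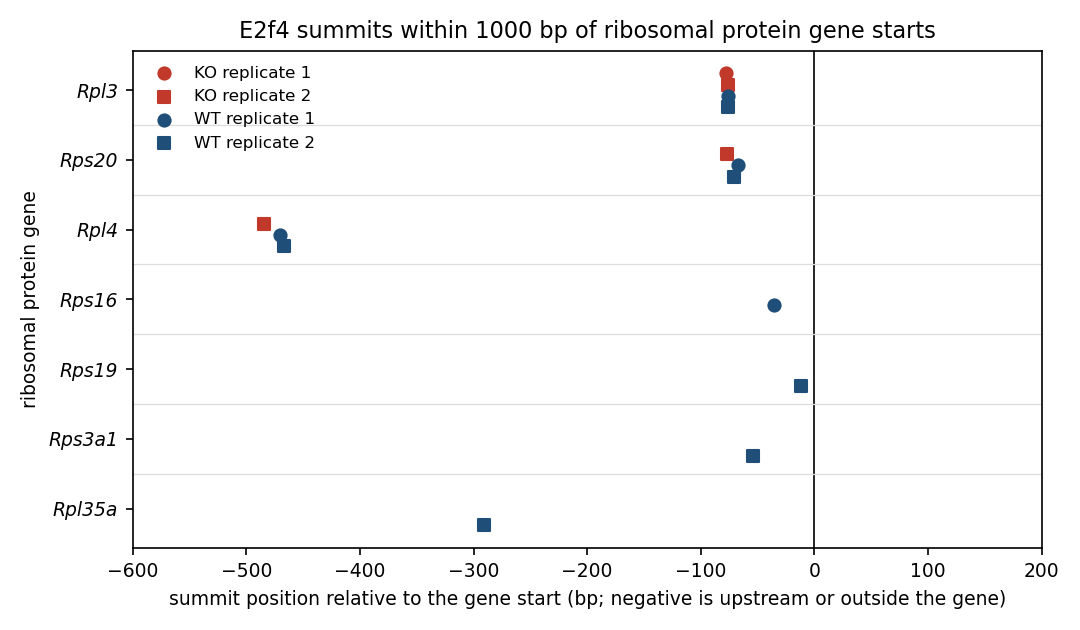
Position of each E2f4 summit relative to the gene start (x axis, bp) at the 7 ribosomal protein genes with a summit within 1000 bp (y axis), by library. Rpl3 has summits in all 4 libraries, Rps20 and Rpl4 in KO replicate 2 and both WT libraries, and the other 4 genes in 1 WT library each.

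Nearly all ribosomal protein genes were marked as active in both genotypes. H3K4me2 lay within 1000 bp of the start of 83 of 89 genes in KO and 84 in WT, or 93.3% and 94.4%, against 66.9% and 65.9% of all protein-coding genes. H3K27ac lay there in 84 genes in KO and 84 in WT, 94.4% each, against 56.2% of all genes in KO and 56.0% in WT. A start placed at the end with more H3K4me2 favours H3K4me2 there, and 20 of 20 such genes had it within 1000 bp in either genotype. Of the 69 genes with a listed start 64 had it, beside 11833 of all 17491 genes with a listed start. The strongest H3K27ac region near the start ranked in the strongest 10% of its list for 63 of 84 genes in KO and 64 of 84 in WT, against 40.7% in KO and 42.2% in WT of all genes with a region there. The strongest H3K4me2 region did so for 58 of 83 genes in KO and 61 of 84 in WT, against 47.1% and 43.3%.

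Marked regions were longer than at other genes and ran over most of these short genes. Within 5000 bp of the start, H3K4me2 covered a median of 3880 bp in KO and 3479 bp in WT, against 3217 bp in KO and 3019 bp in WT at the 14829 other genes with H3K4me2 at the start. H3K27ac covered 3117 bp in KO and 3147 bp in WT, against 2173 and 2174 bp. The median ribosomal protein gene was 3183 bp long, and H3K4me2 covered 76.2% of the gene in KO and 69.3% in WT, while H3K27ac covered 56.0% and 55.6%. The order of the genes by covered length was similar in the genotypes, with a Spearman rho across the 89 genes of 0.888 for H3K4me2 and 0.806 for H3K27ac, a description of 2 libraries each.

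For H3K4me2 the extra length over other genes lay mainly downstream of the start. At the 69 genes with a listed start, H3K4me2 covered a median of 1018 bp upstream in KO and 1038 bp in WT, against 999 bp in KO and 960 bp in WT at the 11769 other marked genes with a listed start. Downstream it covered 2462 bp in KO and 2272 bp in WT, against 1884 and 1754 bp. H3K27ac was longer on both sides, with 943 bp upstream in KO and 940 bp in WT, against 758 and 725 bp, and 1894 bp downstream in KO and 1944 bp in WT, against 1144 and 1120 bp. At 2000 bp downstream, 68.1% of ribosomal protein genes lay in an H3K4me2 region in KO and 55.1% in WT, against 43.5% in KO and 40.1% in WT for the other marked genes. At 1000 bp downstream, H3K27ac covered 87.0% in KO and 85.5% in WT, against 51.8% and 49.7%.

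**Figure D3:**
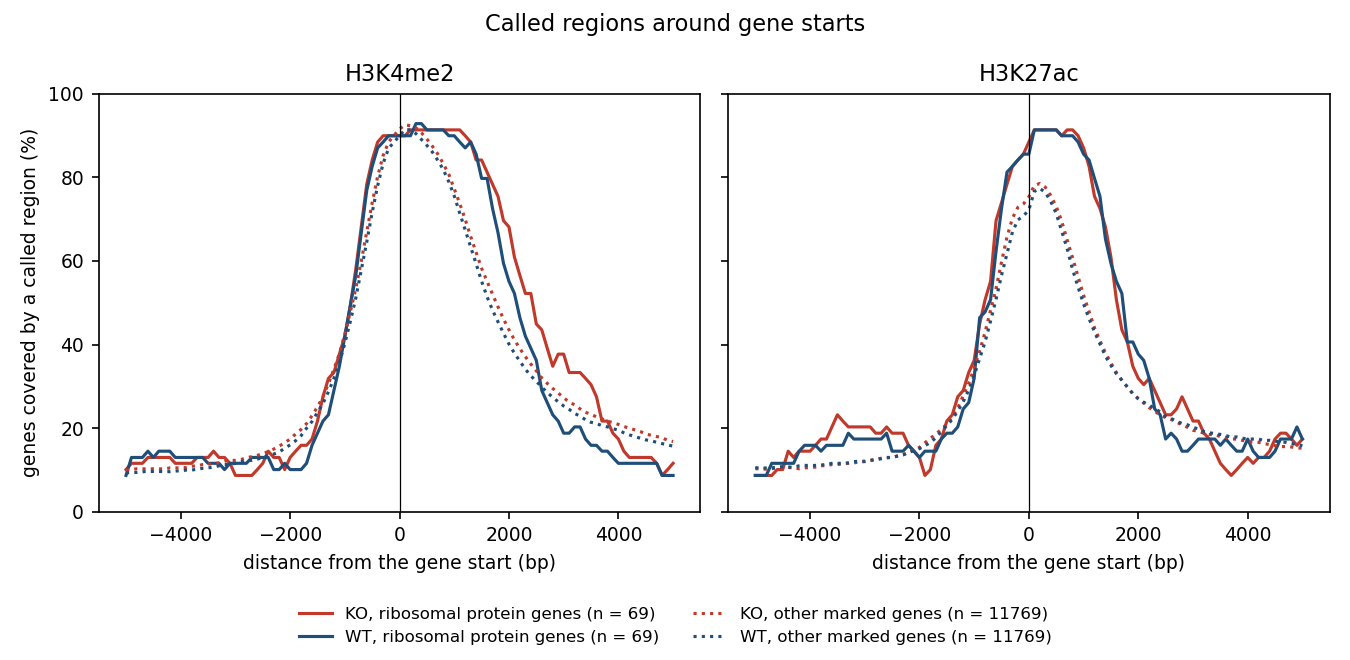
Share of genes (y axis, %) whose base at a given distance from the listed start (x axis, bp, downstream positive) lies in a called H3K4me2 or H3K27ac region, for ribosomal protein genes (solid) and other genes with H3K4me2 at the start (dotted), KO and WT. At 3000 bp downstream the H3K4me2 share of ribosomal protein genes is 37.7% in KO and 18.8% in WT.

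H3K4me2 regions were somewhat longer in KO at ribosomal protein genes. The covered length was longer in KO at 61 genes, shorter at 26 and equal at 2, with a median difference of 230 bp, beside 0 bp over all protein-coding genes and 127 bp over the 16139 genes with any H3K4me2 in the window. Among genes with any H3K4me2 there, it was longer at 70.1% of ribosomal protein genes against 60.2% of all, and shorter at 29.9% against 39.5%. At least 1000 bp more was covered in KO at 15 genes, or 16.9% against 8.58% of all genes and 11.6% of those with any H3K4me2. At least 1000 bp less was covered at 1 gene, or 1.12% against 4.3% and 5.82%. Within 2000 bp of the start the median difference was 77 bp and 0 ribosomal protein genes differed by 1000 bp. Of all genes with any H3K4me2 in that window, 3.13% were at least 1000 bp longer and 1.8% shorter. The excess over other genes depended on the setting. At -log10 q of at least 10, 16.5% of ribosomal protein genes with any H3K4me2 left gained at least 1000 bp, against 15.0% of all such genes. Over the whole gene and 5000 bp on either side the shares were 20.7% against 24.2%. The whole-gene window is longer at longer genes, so these shares compare unlike lengths. The median gene length was 3183 bp for ribosomal protein genes and 22669 bp for all genes with H3K4me2 within 1000 bp of the start. With 1 library per genotype there is no test and no replicate check, and the KO list covered more of the genome as a whole. The markers of endothelium and stellate cells were longer in H3K4me2 in KO as well and those of lymphocytes shorter, and their part in this difference was not tested.

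The difference lay downstream of the start. There H3K4me2 was longer in KO at 47 of 69 genes and shorter at 15, with a median difference of 202 bp, whereas upstream it was longer at 35 and shorter at 28, with a median of 1.0 bp. At the 11769 other marked genes with a listed start, the median differences were 36 bp downstream and 28 bp upstream. Downstream, 68.1% of ribosomal protein genes were longer in KO against 54.2% of those other genes, and 21.7% against 38.0% were shorter. Upstream, 50.7% against 55.9% were longer and 40.6% against 39.5% shorter.

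Rps24, a small subunit protein of the Diamond-Blackfan list, had the largest gain, with 6041 bp in KO and 3933 bp in WT. Rps7, which also binds the p53 regulator Mdm2, had 5411 bp in KO and 3366 bp in WT. Rpl8 had 6665 bp in KO and 4720 bp in WT, Rpl7a 7094 and 5162 bp, and Rps12 6132 and 4304 bp. In Rps24, Rps7, Rpl7a and Rps12 most of the added length was downstream, for example 3644 bp in KO and 1703 bp in WT at Rps24. The windows of Rps24, Rpl8 and Rpl7a also held starts of Polr3a, Commd5 and Med22.

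Other gains of at least 1000 bp included those at Rps14, Rpl27a, Rpl18, Rplp0, Rpl35a, Rpl6, Rps19, Rpl39 and Rps9. Rps14, needed to mature the small subunit RNA, had 4536 bp in KO and 2928 bp in WT, and Rps19 had 4736 and 3566 bp. Rps16 was the exception to the direction, with 3294 bp in KO and 5287 bp in WT.

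H3K27ac was longer in KO at some genes and shorter at others. The covered length was longer in KO at 53 genes and shorter at 34, with a median difference of 142 bp, beside 0 bp over all genes and 36 bp over the 13787 genes with any H3K27ac in the window. Among genes with any H3K27ac there, it was longer at 60.9% of ribosomal protein genes against 52.8% of all, and shorter at 39.1% against 46.6%. At least 1000 bp more was covered in KO at 5 genes, 5.62% against 7.44% of all genes and 11.8% of those with any H3K27ac. At least 1000 bp less was covered at 9 genes, 10.1% against 7.49% and 11.9%, a share near the background. The larger median did not hold at stricter thresholds, with 78 bp at ribosomal protein genes against 82 bp at -log10 q of at least 5, and 172 bp against 261 bp at 10, each over genes with any H3K27ac left. Endothelial and stellate markers had shorter H3K27ac in KO, and their part here was not tested.

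Rps16 lost the most. H3K27ac covered 2684 bp around its start in KO and 7713 bp in WT, with 1582 bp in KO and 4174 bp in WT upstream and 1101 bp in KO and 3538 bp in WT downstream. Within 1000 bp of the start the values were 1906 bp in KO and 2001 bp in WT, so the length that differed lay farther out. It was the only ribosomal protein gene at least 1000 bp shorter in KO for both marks, and no other protein-coding start lay within 5000 bp.

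Rps14 had 2220 bp of H3K27ac in KO and 4571 bp in WT, the reverse of its H3K4me2. Rps7 likewise had less H3K27ac, with 3117 bp in KO and 4652 bp in WT. Rpl26, a large subunit protein known to promote translation of p53, had 4331 bp in KO and 5955 bp in WT. Other losses of at least 1000 bp included those at Rpl32l, Rps15a, Rpl19 and Rpl34. At Rpl19 H3K27ac covered 3092 bp in KO and 4131 bp in WT, and at Rps15a 2778 bp in KO and 4042 bp in WT.

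Among the gains, Rplp0, the base of the stalk that recruits elongation factors, had 3549 bp in KO and 1075 bp in WT, with 1569 bp in KO and 0 in WT upstream of its start. Rpl10a had 4891 bp in KO and 3340 bp in WT, Rpl27a 5008 and 3841 bp, and Rpl35 6407 and 5374 bp. Rplp0 and Rpl27a were among the 3 genes at least 1000 bp longer in KO for both marks, whereas Rps7 and Rps14 were at least 1000 bp longer in H3K4me2 and shorter in H3K27ac. How many other genes fell in either class was not counted.

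**Figure D4:**
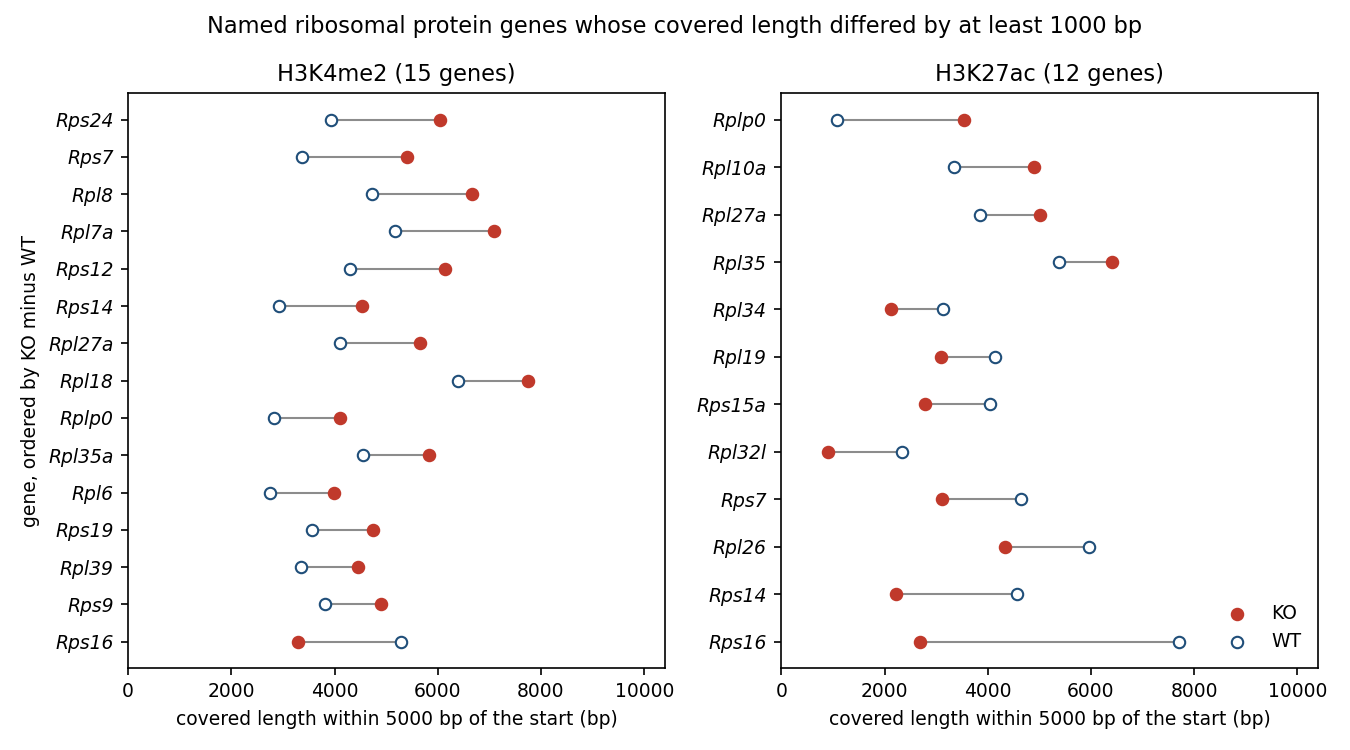
Covered length within 5000 bp of the start (x axis, bp) in KO (filled) and WT (open) for the named ribosomal protein genes that differ by at least 1000 bp, ordered by KO minus WT. For H3K4me2 14 of 15 genes shown are longer in KO, and for H3K27ac 4 of 12 are.

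The marks did not move together across the genes, and neither did they elsewhere. Both were longer in KO at 32 genes and both shorter at 5, H3K4me2 was longer and H3K27ac shorter at 29, and the reverse held at 21. These classes were not counted over other genes. For each mark alone, 60.2% of all genes with H3K4me2 in the window and 52.8% of those with H3K27ac were longer in KO. The Spearman rho of the differences across the 89 genes was -0.054 and across all 14913 marked genes -0.0007, a description of genes that share the same 4 libraries.

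By subunit symbol, the H3K27ac medians had opposite signs and the H3K4me2 medians the same sign. The split follows the symbol alone, so it also holds paralogs and the other genes caught by the symbol, such as Rps19bp1. H3K4me2 was longer in KO at 28 of 35 small subunit genes and 33 of 54 large subunit genes, with median differences of 239 bp and 183.5 bp. H3K27ac was longer in KO at 16 small subunit genes and shorter at 19, with a median of -66 bp, and longer at 37 large subunit genes and shorter at 15, with a median of 221.5 bp. Over all genes with the mark in the window, H3K4me2 was longer in KO at 60.2%. H3K27ac was longer at 52.8% and shorter at 46.6%. The split by subunit was not tested.

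**Figure D5:**
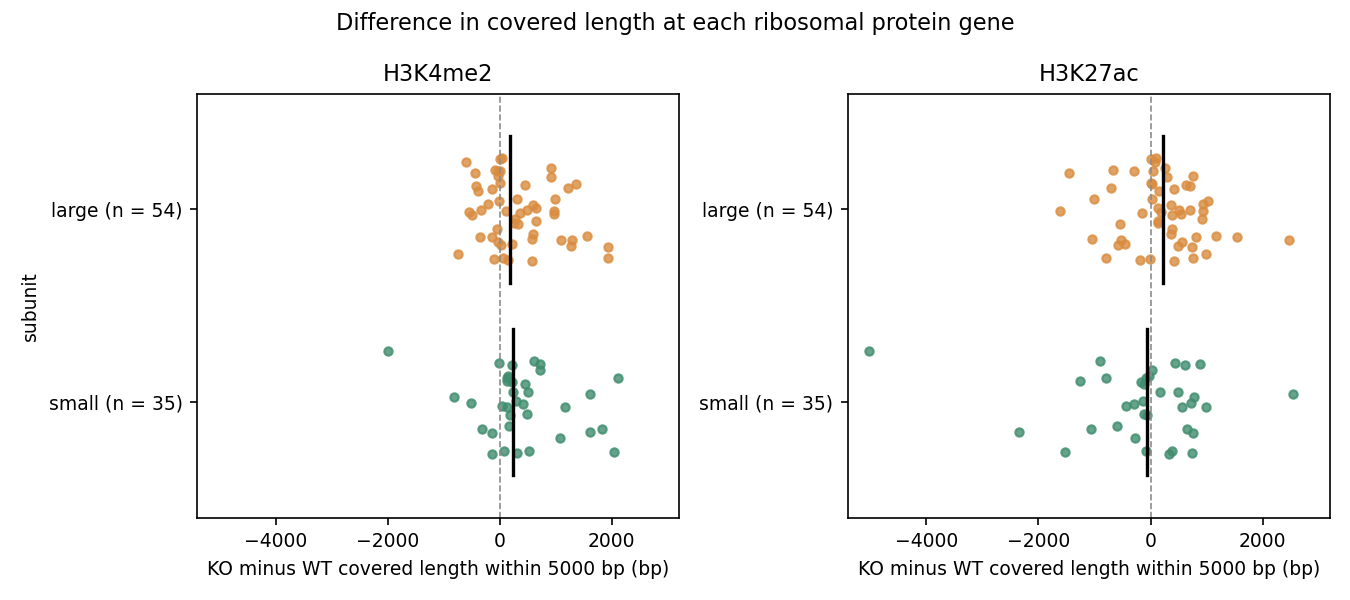
KO minus WT covered length within 5000 bp of the start (x axis, bp) at each ribosomal protein gene, by subunit (y axis), with a black line at the median and points spread vertically for legibility. Subunits follow the gene symbol. The H3K27ac median is 221.5 bp for 54 genes with a large subunit symbol and -66 bp for 35 with a small subunit symbol. The point at the far left is Rps16.

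Among functional groups, the stalk proteins differed from each other. Rplp1 had 3615 bp of H3K4me2 in KO and 3712 bp in WT and Rplp2 had 4381 and 4794 bp, both shorter in KO where Rplp0 was longer. Of the 20 genes mutated in Diamond-Blackfan anaemia, a failure of red cell production, 18 had longer H3K4me2 in KO, 5 of them by at least 1000 bp, and 9 had longer H3K27ac. Over all genes with the mark in the window the shares were 60.2% longer and 11.6% longer by at least 1000 bp for H3K4me2, and 52.8% longer for H3K27ac. Over all ribosomal protein genes with the mark, of which these are a part, they were 70.1%, 17.2% and 60.9%. Rpl5 and Rpl11, which with the 5S RNA bind Mdm2 when ribosome assembly stalls, had 3079 and 2955 bp of H3K4me2 in KO, against 2721 and 3442 bp in WT. Rps6 had 4761 bp in KO and 4546 bp in WT, and Rpsa, which also acts as a laminin receptor, had 2816 and 2659 bp. Of the genes around the exit tunnel, Rpl23a had the longest H3K4me2 of any ribosomal protein gene in KO, 8601 bp, against 7686 bp in WT, in a window that also held starts of Nek8 and Tlcd1.

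Paralogs ranged from unmarked to fully marked. Rpl10l and Rpl39l, which act in the testis, had no called region of either mark in either genotype within 5000 bp. Rpl3l, of heart and skeletal muscle, Rps27rt and Rpl37rt had none within 1000 bp of the start. Rps27l, a p53 target, had 2724 bp of H3K4me2 in KO and 2485 bp in WT, and its strongest H3K27ac region in KO, at rank 131 of 54652, was the highest-ranked of any ribosomal protein gene. Rpl22l1 had 2252 bp of H3K4me2 in KO and 2220 bp in WT, beside 3170 and 3129 bp at its canonical partner Rpl22, of which 886 bp in KO and 705 bp in WT lay within 1000 bp of the listed start. Rpl39, the partner of Rpl39l, had 4447 bp in KO and 3351 bp in WT. Promoters of Rpl10l and Rpl39l did not lack the letters searched, since Rpl39l held ETS letters at 146 and 92 bp before its start and Rpl10l a single Sp1 match at 240 bp.

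Lists of related genes gave the setting for E2f4. Over all protein-coding genes, 3.22% had a summit in a KO library and 3.78% in both WT libraries. Among genes with H3K4me2 within 1000 bp of the start, the shares were 4.73% and 5.55%. Of 78 mitochondrial ribosomal protein genes, 6 had a summit in a KO library and 6 in both WT libraries, 7.69% each. Of 51 proteasome subunit genes 2 and 2 did, 3.92% each. Of 30 ribosome biogenesis genes, 3 had one in a KO library and 3 in both WT libraries: Nop58 and Nhp2, which belong to the small nucleolar ribonucleoproteins that modify ribosomal RNA, and Nolc1, a nucleolar phosphoprotein, which had a summit in all 4 libraries. None of the 15 translation factor genes with TOP messages had one in a KO library or in both WT libraries, although Eef1a1, Pabpc1 and Hnrnpa1 had one in WT replicate 1. Among 11 genes that control ribosomal proteins, Myc had a summit in KO replicate 2 and both WT libraries, and Mtor in both WT libraries alone. H3K4me2 was longer in KO at 23 of 30 ribosome biogenesis genes, 12 of 15 translation factor genes, 46 of 78 mitochondrial ribosomal protein genes and 33 of 51 proteasome genes, against 60.2% of all genes with any H3K4me2 in the window.

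Ribosomal protein genes have many near-identical processed copies elsewhere in the genome. No source used here says how reads that match several places were treated, so lengths over exons of these genes are uncertain where reads could have been split or dropped.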

How the data were processed

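ChIP-seq peak lists of 8 libraries were analysed, and the 8 inputs of the series were not analysed here. The submitters' processing notes name build mm10 and, without roles, HOMER, Picard, Bowtie2 2.2.3 and MACS2 2.0.10.20131216. Each library has its own list, so peaks were called per library. The deposited lists give each peak's position and a fold enrichment, which is a ratio, and -log10 p-values and -log10 q-values, used only for ranks and thresholds inside each list. The deposited score was left aside, and E2f4 summits were placed by the deposited offset. Without counts the depth is unknown, and no counting interval was given.

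Genes were placed by RefSeq on GRCm38.p6, whose coordinates are those of mm10. A gene's start was its 5′-most start in the RefSeq promoter table (69 of 89 ribosomal protein genes and 17491 of all), otherwise the gene end where H3K4me2 of both genotypes covered more within 2000 bp (20 and 3236), and both ends where neither decided (1156 of all). The design named the gene start by strand, and the promoter table was its source. E2f4 was counted by a summit within 1000 bp, and marks by the length covered within 5000 bp, over all protein-coding genes. E2f4 libraries were compared by an exact permutation test, and marks, with 1 library per genotype, by counts and medians without a test. Replicate numbers come from the titles, and no label says that they pair libraries across genotypes. Promoters of 69 genes matched by gene ID, and Rpl3 and Rps20 are named without one.

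Some genes that the rule names are not reported here by name, and they stay in all counts and medians. The members, the gene lists and the rule for named genes were chosen with earlier results of these data known. The rule took genes with an E2f4 summit, up to 10 gains and 10 losses per mark, up to 5 genes with the least mark, a list of ribosomal proteins of known role, and up to 3 genes per related list with summits in both WT libraries. Rps10, Rps18, Rpl6, Rps9, Rpl15, Rpl23a, Rpl28, the translation factors with 1 summit and the genes sharing a start were named after their values were seen. Alternatives were other windows, stricter q-values, lists of equal length, other gene anchors, joined regions, canonical genes alone and each E2f4 library left out. Scripts ran in Python 3.11.15 with numpy 2.4.6, pandas 2.3.3, SciPy 1.17.1 and matplotlib 3.10.9, and the counting functions were tested on simulated data.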

Additional observations from a re-analysis of the deposited data

How the results depend on the processing

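Of 111 values under alternatives, 82 stayed close, meaning that a count or median was within 1.5 times its value in the report, or that the tested E2f4 difference kept its sign. With E2f4 lists of equal length the KO minus WT difference in ribosomal protein genes with a summit turned to 1.0 (exact permutation p = 1.0), and 1 gene had a summit in both WT libraries. Within 10000 bp that count was 5. Leaving out each E2f4 library in turn gave differences of -4.0 to -2.0, 1 to 3 genes with a summit in a KO library (1 without KO replicate 2), and 4 to 6 in the WT libraries (6 without WT replicate 1, 4 without WT replicate 2). With the replicate number as a block the difference was -3.0 with p = 0.5 by an exact sign permutation test, the smallest that 2 pairs allow, and no label pairs the libraries.

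For H3K4me2 the median difference was 0 bp within 1000 bp and 77 bp within 2000 bp. In either window 0 ribosomal protein genes were at least 1000 bp longer or shorter in KO. Of all genes with any H3K4me2 in the window, 0.805% were that much longer and 0.664% shorter within 1000 bp. Within 2000 bp these shares were 3.13% and 1.8%. Genes at least 1000 bp shorter numbered 5 at -log10 q of at least 10, 3 with regions under 1000 bp apart joined and 2 over the whole gene. Among genes with any H3K4me2 left, these were 5.88%, 3.45% and 2.3% of ribosomal protein genes. The shares of all such genes were 7.12%, 6.38% and 11.5%, the last over windows that are longer at longer genes.

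For H3K27ac, 0 genes were longer or shorter by 1000 bp within 1000 bp, with a median of 0 bp. Of all genes with any H3K27ac in that window, 1.41% were longer and 1.13% shorter. Within 2000 bp the median was 0 bp, with 2 longer and 1 shorter. These were 2.35% and 1.18% of genes with any H3K27ac there, against 5.31% and 3.77% of all. Within 10000 bp the median was 82 bp, with 18 longer and 15 shorter. These were 20.7% and 17.2%, against 16.5% and 18.5% of all. The median was 42 bp at -log10 q of at least 5 and 89 bp from the end with more H3K4me2. Longer genes numbered 13 at -log10 q of at least 10, where 5 were shorter, 13 with joined regions and 12 over the whole gene. Among genes with any H3K27ac left, these were 13 of 81, 13 of 87 and 12 of 87 ribosomal protein genes, against 29.7%, 12.3% and 18.9% of all. The 5 shorter genes were 6.17%, against 10.9% of all. The whole-gene window is longer at longer genes, so its shares compare unlike lengths. The causes were not tested. Depth is unknown, and a called length depends on it.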
